A study of Homo sapiens with 4 samples.

Results

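The genes described here are the urokinase system, its receptor, a set of secreted and membrane-bound matrix proteases and their tissue inhibitors, followed in human liver cancer cells transfected with a mimic of miR-4730, a microRNA. They were chosen by name as PLAU, PLAT, PLAUR, MMP7, MMP14, MMP15, ADAMTS1, TIMP1 and TIMP2. Of these 9 genes, 8 had a probe set named for them, out of 17687 named genes on the array, and TIMP2 was not analysed here. The filter on low values kept 7 of the 8 among 12381 genes tested and left out ADAMTS1. Every one of the 8 had 1 probe set.

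There were 4 groups with 1 Affymetrix array each: Li-7 cells with the miR-4730 mimic, Li-7 cells with the negative control oligonucleotide, HEP-G2 cells with the mimic, and HEP-G2 cells with the negative control. Li-7 and HEP-G2 are established human liver cancer lines. Cells received the mimic at 3 nM with a lipid reagent, 24 h after they were seeded, and the time of harvest is not given in the sources used here. Li-7 was grown in RPMI-1640 and HEP-G2 in DMEM, so line and medium cannot be told apart. No group had a replicate array, so each response within a line sets 1 array against 1 other, and precision is limited by the number of arrays. Values are on the deposited scale, read as log2, and folds are on that scale. In bulk RNA, fewer cells making a transcript and less transcript per cell cannot be told apart.

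Urokinase (PLAU) and tissue plasminogen activator (PLAT) are serine proteases that cut plasminogen into plasmin, a broad protease that dissolves fibrin and attacks matrix proteins. The receptor PLAUR holds urokinase at the cell surface, where activation is concentrated. Matrix metalloproteinases are zinc enzymes made as inactive precursors, some of which plasmin can activate, and TIMP proteins bind and block their active sites. In liver cancer these genes are studied for their part in matrix breakdown and invasion.

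The agent that distinguishes the groups of each line is hsa-miR-4730, whose RefSeq mature sequence (GRCh38.p14, chromosome 17, positions 80419427 to 80419449, plus strand) is shown because it is the strand the mimic copies. Capitals mark the seed, bases 2 to 8 from the 5′ end, through which a microRNA pairs with its targets. Of 2370 mature microRNAs in the RefSeq table, 1 has this seed, miR-4730 itself.
hsa-miR-4730: cUGGCGGAgcccauuccaugcca

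HMGA1, the chromatin protein that the series names as the target of miR-4730, stood at 10.91 in Li-7 with the mimic against 14.93 in the Li-7 control, and at 11.61 in HEP-G2 with the mimic against 14.79 in the HEP-G2 control. A gene is called above background here where it exceeds a mark set at the 95th percentile of its array's 612 negative controls, which lay at 7.99 for Li-7 mimic, 8.72 for Li-7 control, 8.20 for HEP-G2 mimic and 8.35 for HEP-G2 control. Of 10 hepatocyte markers measured, 1 (SERPINA1) was above background in Li-7 with the mimic and 0 in the Li-7 control, against 10 on each HEP-G2 array. Albumin and alpha-fetoprotein were thus under background in Li-7, while all 5 epithelial markers were above it there. Of 13 stromal, endothelial and blood cell markers, 3 were above background on each array, 2 of them on all 4, and the mean level of the 13 ran only from 5.91 to 6.03 over the 4 arrays. Those on all 4 were the collagen gene COL1A2 and the macrophage marker CD68 (8.24 to 9.91), with LUM above background on both Li-7 arrays and ACTA2 on both HEP-G2 arrays, while 9 of the 13, PTPRC, PECAM1 and COL1A1 among them, were under it on every array. Their part in the results below was not tested.

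PLAU had the largest response of the members in Li-7 and the largest mean change over the lines. It stood at 16.41 in Li-7 with the mimic, against 13.95 in the Li-7 control, a difference of 2.46 or 5.49-fold. That was the 4th highest difference of 12381 genes in Li-7. In HEP-G2 it stood at 8.46 with the mimic, just above background, against 7.83 in the control, just under it. The HEP-G2 difference was 0.63, which, with the control array only a bound, corresponds to at least 1.08-fold. Both Li-7 values thus lay far above both HEP-G2 values, and the mimic array was the higher of its pair in each line. On the deposited scale the response was larger in Li-7 than in HEP-G2 by 1.83 log2 units. Of all genes tested, 99.4% had a smaller such difference between the lines. Because the HEP-G2 control value was under background, neither the 1.83 nor its rank is a measured one. With 1 array per group, that difference was not tested.

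**Figure D1:**
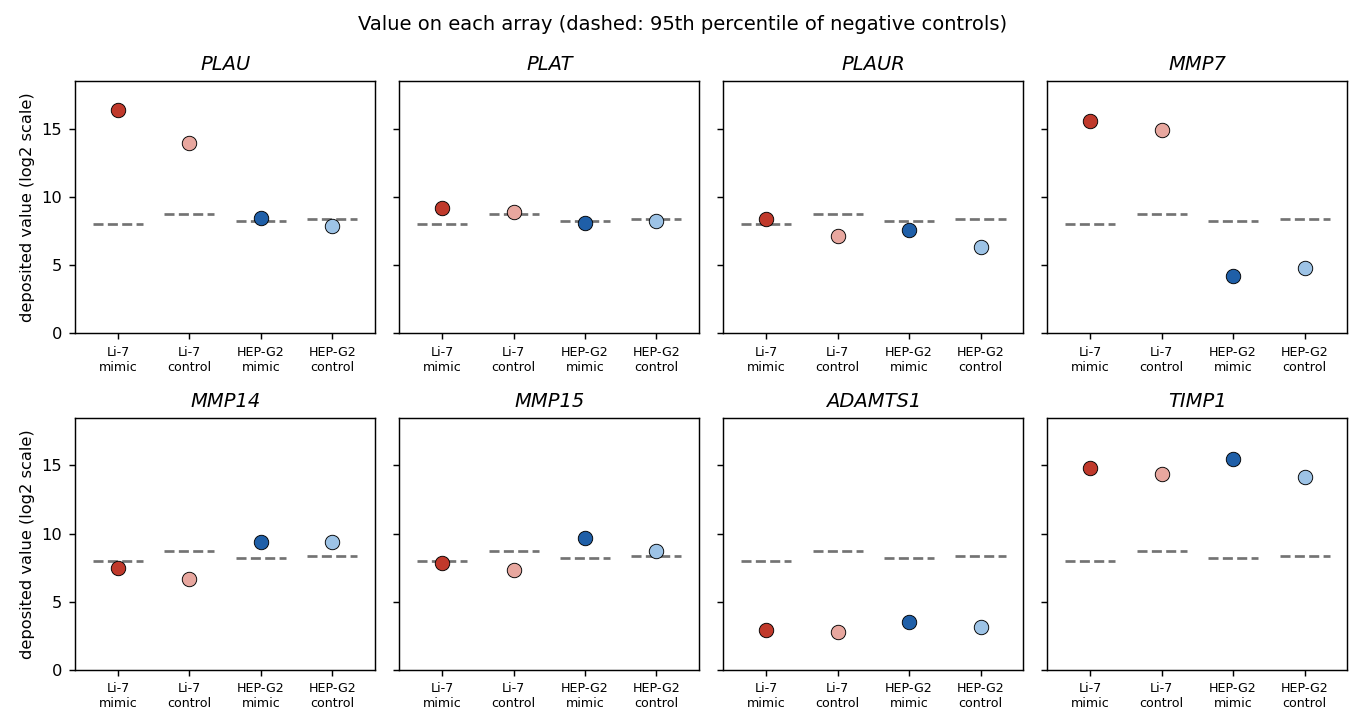
Deposited value on the log2 scale (vertical axis) of each measured gene on each of the 4 arrays, mimic left of control within each line. Points are single arrays, and dashed marks give that array's 95th percentile of negative controls. PLAU and MMP7 were bright in Li-7 alone, TIMP1 was bright on all 4 arrays (14.13 to 15.49), and ADAMTS1 lay under the dashed mark on all 4.

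PLAT, the other plasminogen activator, did not share the PLAU response. It stood at 9.18 in Li-7 with the mimic against 8.86 in the Li-7 control, a difference of 0.33 or 1.25-fold. In HEP-G2 it stood at 8.11 with the mimic and 8.26 in the control, both under background, so no fold is given there. The Li-7 arrays were the higher for PLAT, by at least 1.67-fold over the HEP-G2 arrays.

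PLAUR, which anchors urokinase to the cell surface, had like differences in both lines at low values. It stood at 8.38 in Li-7 with the mimic, against 7.13 in the Li-7 control, a difference of 1.26. In HEP-G2 it stood at 7.59 with the mimic, against 6.29 in the control, a difference of 1.29. The Li-7 mimic array was the 1 array of 4 on which PLAUR was above background, and its value there (8.38) was still below the background mark of the Li-7 control array (8.72). No fold is therefore given for PLAUR in either line, although both mimic values were above both control values.

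MMP7, matrilysin, a small secreted metalloproteinase made mainly by epithelial cells, was a Li-7 gene in these data. It stood at 15.56 in Li-7 with the mimic, against 14.93 in the Li-7 control, a difference of 0.63 or 1.55-fold. In HEP-G2 it stood at 4.19 with the mimic and 4.74 in the control, near the median of the negative controls (4.26 and 4.34). The Li-7 arrays were at least 125-fold above the HEP-G2 background mark. The 2 differences within the lines had opposite signs, but the HEP-G2 one, -0.55, was between a pair of values under background.

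The membrane-type enzymes were the reverse, above background in HEP-G2 alone. MMP14, also called MT1-MMP, which activates MMP2 at the cell surface, stood at 7.43 in Li-7 with the mimic and 6.63 in the control, both under background. In HEP-G2 MMP14 stood at 9.39 with the mimic and 9.35 in the control, a difference of 0.04 or 1.03-fold. MMP15, or MT2-MMP, its close relative, stood at 7.80 in Li-7 with the mimic and 7.35 in the control, again both under background. In HEP-G2 MMP15 stood at 9.69 with the mimic, against 8.68 in the control, a difference of 1.00 or 2.01-fold. The HEP-G2 arrays were therefore higher than the Li-7 arrays by at least 2.02-fold for MMP14 and at least 1.77-fold for MMP15, and the mimic difference in HEP-G2 was seen for MMP15 and not for MMP14.

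ADAMTS1, a secreted metalloproteinase that cleaves the proteoglycans aggrecan and versican, stood between 2.76 and 3.54 on the 4 arrays, under background on each, and is not described further.

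TIMP1, a secreted inhibitor of most matrix metalloproteinases, was above background on every array. It stood at 14.81 in Li-7 with the mimic, against 14.34 in the Li-7 control, a difference of 0.47 or 1.38-fold. In HEP-G2 it stood at 15.49 with the mimic, against 14.13 in the control, a difference of 1.36 or 2.57-fold. Its control values lay 0.21 log2 units apart in the lines, so TIMP1 was the 1 measured gene of the set at like values in Li-7 and HEP-G2 while above background in both. Both mimic values lay above both control values.

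**Figure D2:**
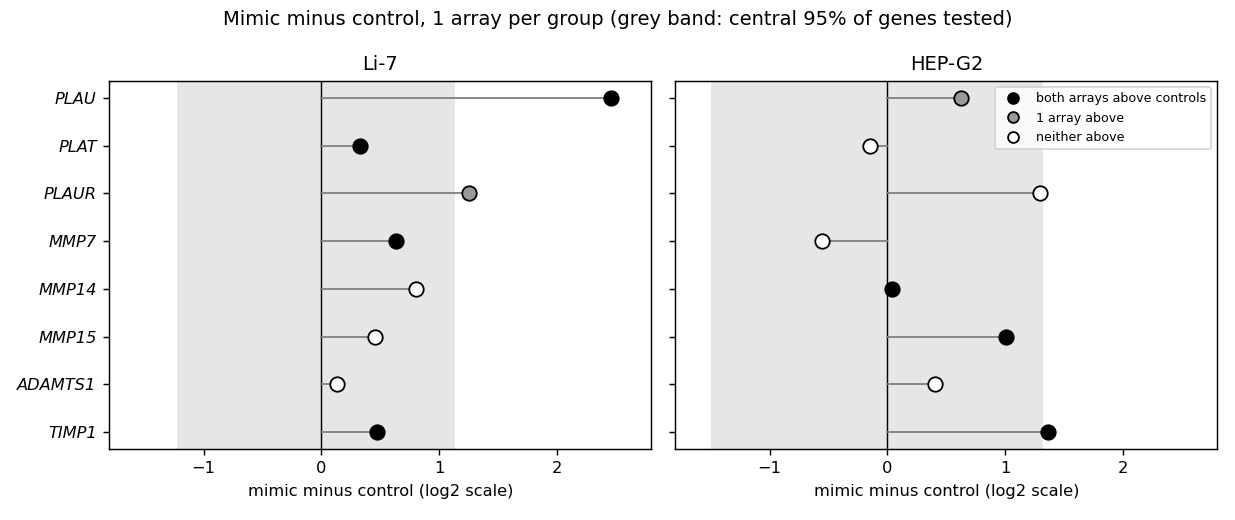
Mimic minus control on the log2 scale (horizontal axis) for each measured gene, Li-7 on the left and HEP-G2 on the right, 1 array per group. Fill shows on how many of the 2 arrays the gene was above background, and the grey band holds the central 95% of the 12381 genes tested. PLAU and PLAUR lay beyond the band in Li-7, and TIMP1 in HEP-G2.

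Set beside all genes, differences of at least 1 log2 unit with the mimic were found for PLAU and PLAUR in Li-7 (2 of the 7 tested members), where 3.72% of all genes tested were at least that much higher. In HEP-G2 they were found for PLAUR, TIMP1 and MMP15 (3 of 7), against 5.77% of all genes. PLAUR was the 1 member past that limit in both lines, as were 1.03% of all genes. It was above background on 1 array alone. Among the 612 negative controls, the standard deviation of mimic minus control was 1.20 (Li-7) and 1.51 (HEP-G2). PLAUR differences of 1.26 and 1.29 were thus of a size common among negative controls, and whether they exceed background scatter was not tested. None of the 7 was lower by that much in either line, against 4.12% of all genes in Li-7 and 6.28% in HEP-G2. PLAU, PLAUR, MMP14, MMP15 and TIMP1 were higher with the mimic in both lines (5 of 7), as were 34.1% of all genes. The median difference of the 7 was 0.63 for both Li-7 and HEP-G2, while the median of all genes tested was 0.02 in each line. The central 95% of all genes ran from -1.21 to 1.13 in Li-7 and from -1.49 to 1.31 in HEP-G2. These genes were chosen with their responses known, so these counts describe them and test nothing.

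In the fit over all genes, which takes cell line and treatment as additive terms, 0 of the 7 members passed limma's test at an adjusted p of 0.05, where 0.42% of all genes passed (0.0808% higher and 0.339% lower). Of the genes that passed, 80.8% were lower, against 58.7% of the 465 that passed after quantile normalization. At an unadjusted p of 0.05, 4 of the 7 were higher (PLAU, PLAUR, MMP15 and TIMP1) and 0 lower, beside 9.75% of all genes higher and 9.71% lower. The mean change over the lines was 1.54 for PLAU (SE 0.43), 1.27 for PLAUR (SE 0.24), 0.92 for TIMP1 (SE 0.30) and 0.73 for MMP15 (SE 0.27). It was 0.42 for MMP14 (SE 0.28), 0.09 for PLAT (SE 0.26) and 0.04 for MMP7 (SE 0.33). These are limma's moderated errors, which rest mostly on a prior taken over all genes and not on each gene's own spread. The unmoderated errors were 0.915 for PLAU and 0.0189 for PLAUR. After quantile normalization PLAU and PLAUR passed, and PLAUR passed when genes had to be above background on at least 1 array, so the count depends on these settings. The members were chosen with these responses known, so their p-values and calls describe them and test nothing.

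**Figure D3:**
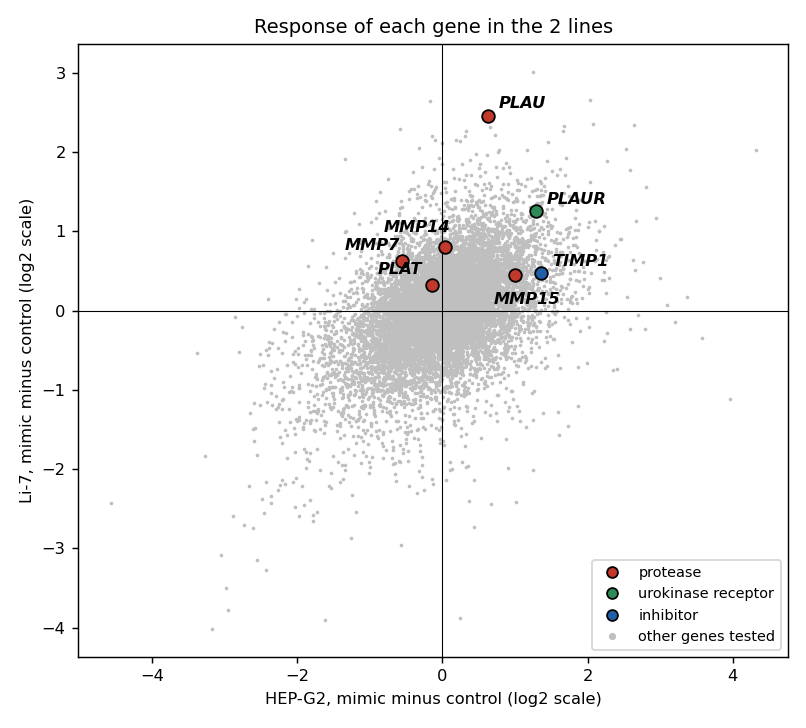
Mimic minus control on the log2 scale in HEP-G2 (horizontal axis) and Li-7 (vertical axis) for each of the 12381 genes tested, as grey dots, with the 7 tested members in colour. PLAU lay high on the Li-7 axis, TIMP1 and MMP15 lay toward the HEP-G2 side, and PLAUR was at nearly the same difference in both lines.

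TIMP1, above background on every array, had its larger difference in HEP-G2. MMP15 also had its larger difference there, while PLAU, PLAT, MMP7 and MMP14 had theirs in Li-7. PLAU, PLAT, MMP7 and MMP15 were under background on at least 1 array of the other line. MMP14 was under it on both arrays of Li-7 itself. For these 5 genes that order is therefore not a measured one. Sizes relative to TIMP1 are measured only where a gene was above background on both arrays of a line, which holds for PLAU, PLAT and MMP7 in Li-7 and for MMP14 and MMP15 in HEP-G2. In Li-7 the difference for PLAU exceeded that for TIMP1 by 1.99 log2 units and that for MMP7 exceeded it by 0.16, while PLAT lay at -0.14 relative to TIMP1. In HEP-G2 MMP15 lay at -0.36 relative to TIMP1 and MMP14 at -1.32. These are single arrays, with no test. These compare responses and not amounts, since levels of different probe sets cannot be set against each other. PLAU and PLAT are serine proteases, while TIMP1 inhibits metalloproteinases, so TIMP1 is only a reference gene for them. None of these values is read as a balance of protease and inhibitor.

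Between the lines, Li-7 minus HEP-G2 on the deposited scale averaged 10.78 for MMP7, 7.04 for PLAU, 0.83 for PLAT and 0.82 for PLAUR, and it averaged -2.34 for MMP14, -1.61 for MMP15 and -0.24 for TIMP1. Of these, TIMP1 alone was above background on all 4 arrays, and the others are not measured sizes. The bounds given above apply to MMP7, PLAT, MMP14 and MMP15, PLAU was under background on the HEP-G2 control array, and PLAUR was under it on 3 of the 4 arrays. Taken by array, the order of PLAU values was Li-7 mimic, Li-7 control, HEP-G2 mimic and HEP-G2 control, and PLAUR values ran Li-7 mimic, HEP-G2 mimic, Li-7 control and HEP-G2 control. In the same limma fit, 6 of the 7 passed for line (4 higher and 2 lower in Li-7, the exception being TIMP1), where 44.9% of all genes passed (24.3% higher and 20.7% lower in Li-7). The levels were known when the genes were chosen, and nothing is read from that count. The calls for PLAT and PLAUR were lost after median centring (adjusted p = 0.0613 and 0.0552), and that for PLAUR after quantile normalization (adjusted p = 0.0513). With an ordinary t statistic all 6 calls were lost, with adjusted p from 0.234 for PLAUR to 0.337 for PLAT. Over the same comparison, the hepatocyte markers averaged 5.31 and 5.13 on the Li-7 mimic and control arrays and 15.6 and 15.1 on the HEP-G2 mimic and control arrays. The part of lineage, medium or line in the member differences was not tested.

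RefSeq start-site windows (GRCh38.p14, 250 bases before to 50 after each annotated start) were at hand for 6 of the measured members, not for PLAT and ADAMTS1. The windows of PLAU, PLAUR, MMP7 and TIMP1 are shown because PLAU, PLAUR and TIMP1 had the 3 largest mean changes of the members and MMP7 the largest line difference. Capitals mark matches on either strand to TGANTCA, the AP-1 motif, to AGGAAGT, an ETS motif, to TATAAA, the TATA box, and to GGGCGG, the core of the SP1 motif. Of 35116 RefSeq windows of this length, 7.71% hold TGANTCA, 8.24% AGGAAGT, 11.5% TATAAA and 45.0% GGGCGG.
PLAU, the second of 2 annotated starts, chr10:73910882-73911181, plus strand: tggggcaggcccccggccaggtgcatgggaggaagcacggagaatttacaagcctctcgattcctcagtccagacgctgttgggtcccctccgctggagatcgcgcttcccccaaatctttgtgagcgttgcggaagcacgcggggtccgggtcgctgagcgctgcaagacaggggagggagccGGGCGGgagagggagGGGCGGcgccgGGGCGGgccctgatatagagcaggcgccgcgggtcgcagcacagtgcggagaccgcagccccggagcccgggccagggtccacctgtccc
PLAUR, chr19:43670120-43670419, minus strand: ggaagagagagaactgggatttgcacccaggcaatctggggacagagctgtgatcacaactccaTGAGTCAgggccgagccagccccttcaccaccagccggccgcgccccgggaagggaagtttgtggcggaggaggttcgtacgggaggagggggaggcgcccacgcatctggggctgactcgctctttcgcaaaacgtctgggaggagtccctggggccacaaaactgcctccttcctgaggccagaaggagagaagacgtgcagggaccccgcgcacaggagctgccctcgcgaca
MMP7, chr11:102530698-102530997, minus strand: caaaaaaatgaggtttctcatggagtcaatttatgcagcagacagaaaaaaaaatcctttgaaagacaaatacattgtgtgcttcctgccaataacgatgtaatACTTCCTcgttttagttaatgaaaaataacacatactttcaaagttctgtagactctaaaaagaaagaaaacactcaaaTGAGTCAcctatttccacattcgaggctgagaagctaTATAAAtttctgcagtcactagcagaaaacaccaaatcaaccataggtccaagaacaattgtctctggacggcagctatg
TIMP1, chrX:47582186-47582485, plus strand: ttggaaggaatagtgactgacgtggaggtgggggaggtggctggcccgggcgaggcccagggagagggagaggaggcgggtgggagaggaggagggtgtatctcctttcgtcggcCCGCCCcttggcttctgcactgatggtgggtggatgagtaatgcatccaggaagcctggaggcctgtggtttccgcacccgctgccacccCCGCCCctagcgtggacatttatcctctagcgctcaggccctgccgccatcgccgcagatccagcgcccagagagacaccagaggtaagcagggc

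The MMP7 window, the poorest in G and C of the 7 windows at 35.7%, holds 1 match each to the AP-1, ETS and TATA letters, at positions -67, -146 and -30 relative to the start. The PLAUR window holds 1 AP-1 match, at -186. The PLAU window shown holds 3 GGGCGG matches, and that of its other start holds 0 matches to any of the 4 motifs. The TIMP1 window has 2 GGGCGG matches, the MMP14 window 1 and the MMP15 window 5, with 0 matches to the other motifs. Of the genes higher with the mimic in both lines, PLAU (1 of its 2 windows), MMP14, MMP15 and TIMP1 thus held GGGCGG and PLAUR did not. Of all windows, 45.0% hold it. A match is an exact run of letters and not a measured site, and a window with 0 matches may still hold a variant of a motif.

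The genes whose 4 values most resembled those of PLAU, by Euclidean distance after each gene's mean over the 4 arrays was removed, were AHNAK2, a large scaffold protein (distance 0.48), ME3, a mitochondrial malic enzyme (0.86), SEMA3E, a secreted semaphorin (0.86), RAB27B, a GTPase of vesicle secretion (0.88), and KIRREL1, an adhesion protein (0.93). AHNAK2, the nearest, stood at 12.18 in Li-7 with the mimic against 10.38 in the Li-7 control, and at 4.54 and 4.05 in HEP-G2 mimic and control. Their mimic differences in Li-7 ran from 1.20 for KIRREL1 to 1.80 for AHNAK2, all smaller than that of PLAU. The likeness rests on 4 arrays and mostly on the difference between the lines.

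Other genes of plasminogen activation had no member past the test of the common response (0 of 19 tested), where 0.42% of all genes passed. At an unadjusted p of 0.05, 4 were higher and 0 lower, beside 9.75% of all genes higher and 9.71% lower. Of the 19, 11 were higher and 3 lower in both lines, where 34.1% of all genes were higher and 31% lower. The medians were 0.13 for Li-7 and 0.56 for HEP-G2. ITGAV, the alpha V chain of integrins that bind vitronectin, stood at 13.94 in Li-7 with the mimic against 12.46 in the control, and at 13.27 against 11.43 in HEP-G2 (mean change 1.66, adjusted p = 0.0589 by limma). ITGA3, the alpha chain of a laminin-binding integrin, differed by 0.63 for Li-7 and 2.62 for HEP-G2, whose values (7.39 with the mimic and 4.77 in the control) were under background. VTN, vitronectin, a matrix ligand of PLAUR, differed by 0.68 for Li-7, where the control value (8.57) was under background, and by 2.29 for HEP-G2. The largest line differences of the list were those of A2M, the broad protease inhibitor alpha-2-macroglobulin (-11.40), and CPB2, a carboxypeptidase that slows fibrinolysis (-10.49), both under background in Li-7. Within HEP-G2, A2M was higher with the mimic by 1.20 and CPB2 was lower, at -0.73. PLG, plasminogen itself, was under background on every array, at 5.65 and 4.87 in Li-7 mimic and control and 5.33 and 4.47 in HEP-G2 mimic and control.

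None of the 19 other matrix metalloproteinases measured was above background on any array, so MMP7, MMP14 and MMP15 were the measured members of that family with values above it. The filter kept 5 of them, with medians of 0.15 for Li-7 and -0.07 for HEP-G2. Of the 5, 0 passed and 0 reached an unadjusted p of 0.05, which 9.75% of all genes reached as higher and 9.71% as lower. MMP13 differed by -0.47 for Li-7 and 1.22 for HEP-G2, MMP24 by 0.86 and -0.16, and MMP3 by -0.10 and 0.26. MMP2, the gelatinase that MMP14 activates, stood between 3.87 and 4.88 on the 4 arrays.

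Among 11 tested genes that inhibit, induce or anchor metalloproteinases, 0 passed, and the medians were -0.14 for Li-7 and 0.69 for HEP-G2. At an unadjusted p of 0.05, 4 were higher and 2 lower, beside 9.75% of all genes higher and 9.71% lower. THBS1, thrombospondin, which binds matrix proteases, stood at 14.33 in Li-7 with the mimic against 13.22 in the control, and at 7.48 against 6.70 in HEP-G2, both under background. BSG, known as an inducer of metalloproteinases, was lower in both lines, at 12.97 with the mimic against 13.82 in the Li-7 control and 14.01 with the mimic against 14.95 in the HEP-G2 control (mean change -0.90, adjusted p = 0.132 by limma). CD63, a tetraspanin that binds TIMP1 at the cell surface, differed by 0.46 for Li-7 and 1.15 for HEP-G2. TIMP3, the matrix-bound inhibitor, named after its values were seen, lay under background in Li-7, at 6.58 with the mimic and 6.77 in the control, and stood at 14.13 with the mimic and 13.46 in the control in HEP-G2.

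Of 12 tested ADAM and ADAMTS proteases, 0 passed, and the medians were 0.55 for Li-7 and 0.01 for HEP-G2. At an unadjusted p of 0.05, 2 were higher and 0 lower, beside 9.75% of all genes higher and 9.71% lower. ADAM9 stood at 14.63 in Li-7 with the mimic against 13.69 in the control, and at 12.70 against 11.48 in HEP-G2 (mean change 1.08, adjusted p = 0.103 by limma). ADAM17, which sheds growth factors and cytokines from the cell surface, differed by 0.77 and 0.64, and ADAM28 by -0.22 and -1.18, Li-7 before HEP-G2. In HEP-G2 both ADAM28 values, 3.84 with the mimic and 5.02 in the control, were under background. Of 15 cell surface serine proteases and genes of growth factor activation, 0 passed, and the medians were 0.32 for Li-7 and 0.69 for HEP-G2. At an unadjusted p of 0.05, 5 were higher and 0 lower, beside the same shares of all genes. TFPI, an inhibitor of the tissue factor pathway, stood at 15.38 in Li-7 with the mimic against 14.75 in the control, and at 14.29 against 12.34 in HEP-G2. SPINT1, an inhibitor of the proteases that activate hepatocyte growth factor, differed by 0.67 and 1.42, and the protease TMPRSS2 by 2.15 and 0.18, with both genes under background on every array.

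Matrix substrates and their cross-linkers were mostly higher with the mimic, with median differences of 0.78 for Li-7 and 0.68 for HEP-G2. Of 15 tested, 12 were higher and 0 lower in both lines, where 34.1% of all genes were higher and 31% lower, but 0 passed the test. At an unadjusted p of 0.05, 9 were higher and 0 lower, beside 9.75% of all genes higher and 9.71% lower. This list, like the others here, was chosen with earlier results of these data known, so these counts describe it and test nothing. COL4A1, a collagen of basement membranes, had values of 10.15 in Li-7 with the mimic against 7.94 in the control, which was under background, and of 4.92 and 4.19 in HEP-G2 mimic and control, both under background. TNC, tenascin C, stood at 10.80 in Li-7 with the mimic against 8.15 in the control, which was under background, and differed by -0.18 in HEP-G2, under background on both arrays. SDC4, a cell surface proteoglycan, differed by 0.22 for Li-7 and 2.26 for HEP-G2. Like PLAU, COL4A1 and TNC had their larger difference in Li-7 on the deposited scale. Each of the 3 was under background on at least 1 HEP-G2 array, so this order is not a measured one and was not tested.

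Of 20 tested transcription factors that are known to act on protease genes, 1 passed the test and was lower. It was HMGA1, the target the series names (mean change -3.59, adjusted p = 0.0241 by limma). At an unadjusted p of 0.05, 5 were higher and 4 lower, beside 9.75% of all genes higher and 9.71% lower. In both lines 6 were higher and 5 lower, where 34.1% of all genes were higher and 31% lower. The medians were -0.07 for Li-7 and 0.15 for HEP-G2. JUN, an AP-1 subunit, stood at 10.37 in Li-7 with the mimic against 8.82 in the control, and in HEP-G2, under background, at 7.99 against 5.19 (mean change 2.18, adjusted p = 0.0601). EGR1, an early growth response factor, stood at 6.04 in Li-7 with the mimic against 7.16 in the control, both under background, and at 11.33 in HEP-G2 with the mimic against 7.38 in the control, which was under background. ETS1, an ETS factor known to act on PLAU and named after its values were seen, differed by 2.27 in Li-7 (11.39 with the mimic against 9.12 in the control) and by 0.33 in HEP-G2, where it was under background. The 7 related lists were also set against the other settings. After quantile normalization ITGAV, VTN, ADAM9, COL4A1, VCAN and the AP-1 subunits JUN, JUNB and FOSL1 passed and were higher. With an intensity trend in limma's prior, BSG passed and was lower, and ITGAV, ADAM9, MET, TFPI, FN1, LAMC1, VCAN, FOSL1 and JUN passed and were higher. With an ordinary t statistic 0 genes of these lists passed, HMGA1 included. Medians of the 7 lists kept their sign in each line after quantile normalization, median centring and cyclic loess.

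Among the lineage markers 0 passed as deposited. At an unadjusted p of 0.05, which 9.75% of all genes reached as higher and 9.71% as lower, 3 of 10 hepatocyte markers were higher and 0 lower, 0 of 5 epithelial markers reached it, and 2 of 9 tested stromal, endothelial and blood cell markers were higher and 1 lower. The hepatocyte markers with the largest mean change were SERPINA1 (1.17), FGB (1.01) and FGA (0.80), the last 2 fibrinogen chains under background in Li-7. The epithelial keratin KRT19 stood at 11.66 in HEP-G2 with the mimic against 9.07 in the control, and EPCAM (-0.44) and CDH1 (0.43) had smaller mean changes. PDGFRB, a mesenchymal receptor, had a mean change of 1.07 but lay under background on every array, ACTA2 one of 0.85 and CD68 one of -0.63.

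**Figure D4:**
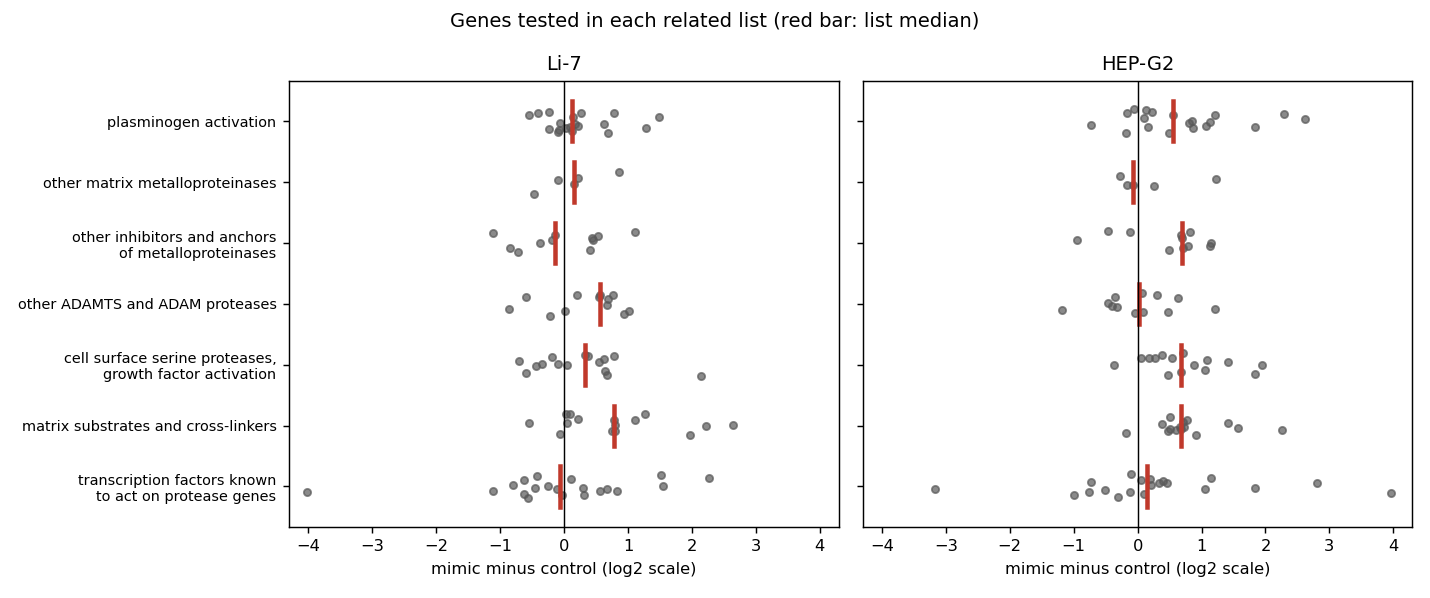
Mimic minus control on the log2 scale (horizontal axis) for each tested gene of the 7 related lists, Li-7 on the left and HEP-G2 on the right. Dots are genes, with vertical scatter for legibility alone, and red bars are list medians. The matrix substrate medians were 0.78 for Li-7 and 0.68 for HEP-G2, and those of the inhibitor and anchor list were -0.14 for Li-7 and 0.69 for HEP-G2.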

How the data were processed

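The authors deposited 1 table of probe-set values on a scale read as log2. Per the submitters' processing notes they used Affymetrix Expression Console and Transcriptome Analysis Console. How they corrected background and normalized, and the log base, is not given in the sources used here. Of 24351 probe sets, 17709 carried 1 gene name, and all matched RefSeq (GRCh38.p14) by Entrez identifier. The brightest probe set stood for a gene, and genes with a mean of at least the 30th percentile (4.90) were tested.

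The deposited values were fitted as they were with limma 3.58.1 (R 4.3.3), with cell line and treatment as terms and Benjamini-Hochberg adjustment over all genes at 0.05. With 1 residual degree of freedom (5.85 prior), p-values reflect how far the lines disagree and hold no spread between cultures. On simulated arrays (20 runs, 12381 genes, 200 changed) the common response recovered 12.5% of changes of 1 log2 unit, 93.2% of 2 and 99.5% of 3, and 12.0% of calls were false. A fold against a group under background used the control percentile of each array as its floor.

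The members and the 10 lists (180 genes, 169 measured) were chosen with earlier results of these data known. Named were all members, HMGA1, and of each list the genes past the threshold (up to 6) and the 3 with the largest mean change, plus 2 by line difference for plasminogen activation and the 5 nearest to PLAU. Any other gene, among them PLG, MMP2, ALB, AFP and the single stromal and blood cell markers, was named after its values were seen.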

Additional observations from a re-analysis of the deposited data

Results flagged for a closer look

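Among the members and the list genes with the largest mean changes, 8 had differences of opposite sign in the lines. Each rests on 1 array per group, and no difference between lines was tested. Given as the Li-7 response minus the HEP-G2 response on the log2 scale, it was 1.18 for MMP7 and 0.47 for PLAT, both under background on the HEP-G2 arrays. For the other metalloproteinases, under background on every array, it was -1.69 for MMP13, 1.02 for MMP24 and -0.36 for MMP3. It was 2.82 for TNC, from 2.65 for Li-7 and -0.18 for HEP-G2, with TNC above background on the Li-7 mimic array alone. For EGR1 it was -5.07, from -1.11 for Li-7 and 3.96 for HEP-G2, with EGR1 above background on the HEP-G2 mimic array alone, so these are not measured sizes, and for the epithelial keratin KRT19 it was -2.82, from -0.23 for Li-7 and 2.59 for HEP-G2.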

How the results depend on the processing

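The count of 52 genes with a common mimic response became 465 after quantile normalization (58.7% lower), 23 after cyclic loess (82.6% lower), 200 with genes above background on at least 1 array (70.5% lower), 411 with an intensity trend (61.6% lower) and 1 with an ordinary t statistic. The ordinary t statistic gave 1 line difference, against 5563. At 1.5-fold, 1592 genes were higher and 1520 lower in Li-7, and 2029 higher and 2003 lower in HEP-G2, with 4 member genes higher in Li-7. Of 112 alternative values for the members' common response and line difference, 100 kept direction and side of the threshold, 3 gained a call and 9 lost one, and 0 turned sign. The gains were PLAU after quantile normalization (adjusted p = 0.0485) and PLAUR after it and with the background filter (adjusted p = 0.0291 and 0.0465). Over the other alternatives neither gained a call, and the cause was not tested. The fit already sets mimic against control within each line, so no further pairing was available. Values near background, and the unstated scale, limit the sizes of PLAUR, PLAT, MMP14 and MMP15.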
